A study of Mus musculus with 3 samples.

Results

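9 genes of the monocyte-recruiting chemokine system were followed through mouse melanomas at single-cell resolution, namely the ligands Ccl2, Ccl7, Ccl8, Ccl12, Ccl11, Ccl24, Ccl6 and Ccl9 and the receptor Ccr2. They were taken by name, as 9 of the 36530 features in the count tables, and each has 1 row under its symbol. The tumors came from mice on a C57BL/6 background that carried a Cre-activated mutant Braf allele and Tyr.CreER. Recombination was thus driven from the tyrosinase promoter, in the melanocyte lineage. Stromal and immune cells are known here by their cluster names, and whether any of them had recombined was not tested. One tumor had been left untreated, one had regressed under vemurafenib, an inhibitor of the mutant Braf kinase, and one had progressed under vemurafenib. The 3 tumors were each profiled with a droplet kit that tags the 3′ end of transcripts with unique molecular identifiers (UMIs), and each library was sequenced in 1 lane. The question addressed here is which cells, stromal or macrophage, were the source of each chemokine in each tumor.

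CC chemokines are small secreted proteins that draw leukocytes along a gradient by binding to G protein-coupled receptors. Ccl2, Ccl7, Ccl8 and Ccl12 are the monocyte chemoattractant proteins, and Ccr2, the receptor shared by Ccl2, Ccl7 and Ccl12, brings inflammatory monocytes out of the bone marrow and into tissue. Ccl11 and Ccl24 are eotaxins, which act through Ccr3 on eosinophils, and Ccl6 and Ccl9 are mouse chemokines that act through Ccr1 on myeloid cells.

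The files hold 4095 untreated, 3726 regressed and 4849 progressed cells in 25 clusters named by the authors, of which 10 are stromal. Median depth per cell was 4496 UMIs for the untreated, 2658 for the regressed and 4566 for the progressed sample. Levels are given as UMIs per 1000000 UMIs of the group of cells named (CPM), a scale that is not divided by transcript length, since the method counts 3′ ends, and intervals are exact 95% intervals that cover counting error only. There are no replicates, so no difference between tumors was tested, and genes were called apart when their levels differed at least 2-fold with at least 20 UMIs in both groups together. Here "stroma" means the 10 clusters of that name and "macrophages" the clusters Macrophages and Monocytes1, the latter richer in monocyte markers (summed level of 4 markers 5536 CPM untreated, 3097 regressed and 8859 progressed, against 459, 301 and 397 in Macrophages; values below follow this order of tumors). Monocytes2 was kept apart, because 5 dendritic cell markers summed there to 13808 to 15712 CPM. The authors' clusters were drawn from all genes, members included, so a level in a cluster is a description. The stromal clusters also divided by tumor: Stroma10 took 1537 of the 1918 stromal cells of the regressed tumor, against 4 untreated and 7 progressed cells.

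**Figure D1:**
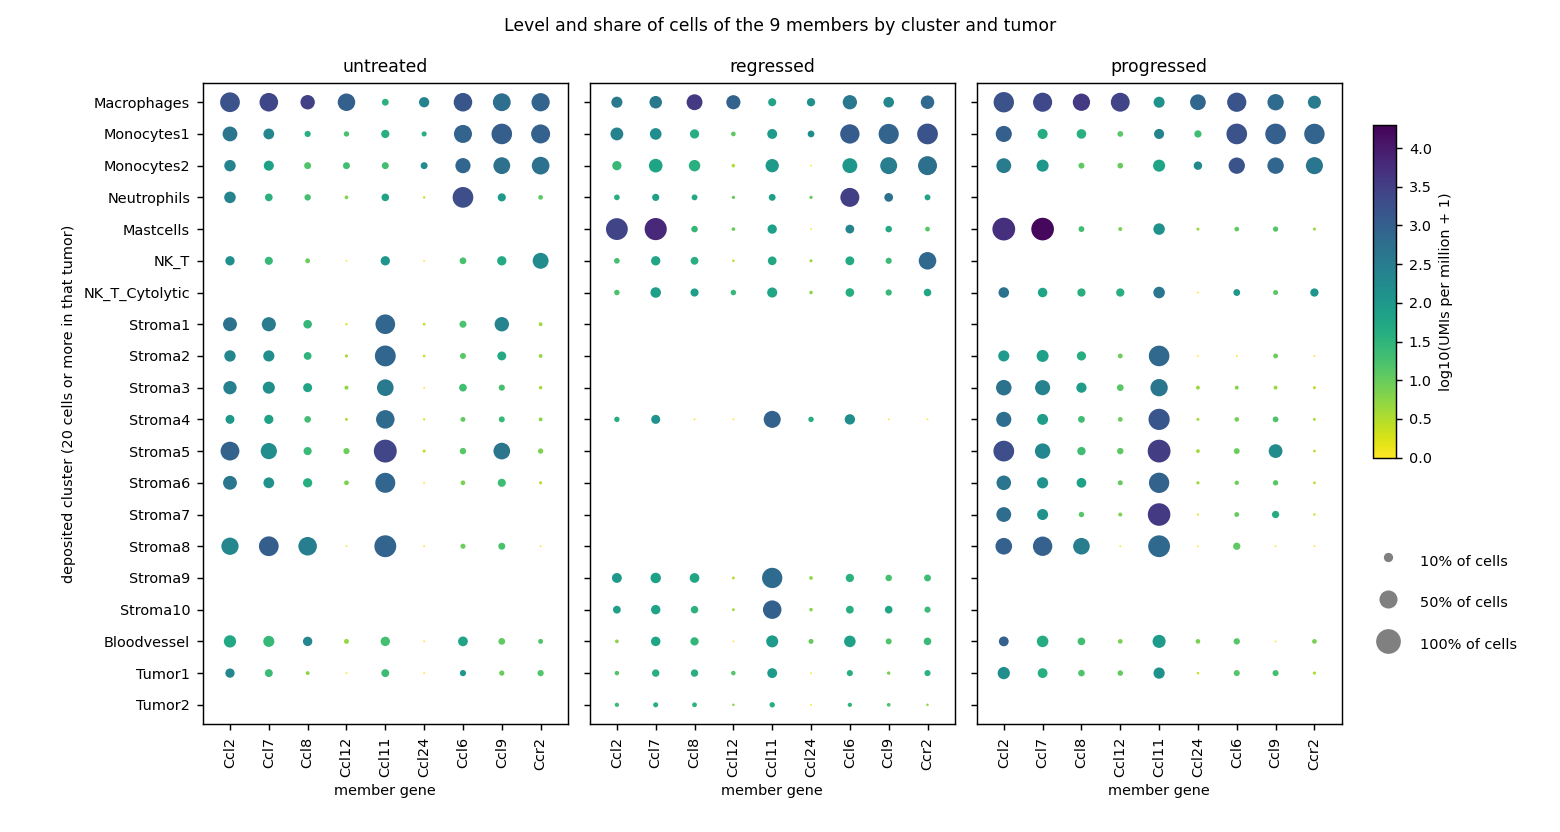
Level (colour, log10 of CPM + 1) and share of cells with at least 1 UMI (dot size, percent) of the 9 genes by tumor, in clusters of immune, stromal, vessel and tumor cells with at least 20 cells. Ccl7 is highest in mast cells (6275 CPM regressed and 15939 progressed, the 16 untreated mast cells not being drawn), Ccl8 and Ccl12 in the cluster Macrophages, and Ccl11 in stromal clusters.

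Ccl2, the main ligand that mobilises Ccr2-bearing monocytes, was broadly detected. Over whole tumors it stood at 377, 149 and 859 CPM, sums to which both the make-up of a tumor and the level per cell contribute. In stroma it was 320 CPM (310 to 329) untreated, 80.9 (74.1 to 88.2) regressed and 947 (932 to 961) progressed, and in macrophages 1071 (1029 to 1114), 274 (244 to 307) and 1532 (1470 to 1596). The regressed tumor was thus lowest and the progressed tumor highest in both compartments taken as classes, with no overlap of the intervals. The share of macrophages with a Ccl2 UMI followed the same order, at 60.3%, 27.6% and 75.0%, and at 42.6%, 15.9% and 54.6% when every cell was thinned to 1000 UMIs, which left out 14, 64 and 11 shallower cells. In the cluster Macrophages alone, however, progressed Ccl2 was slightly below untreated Ccl2, as listed with the processing alternatives below. Tumor cells were taken as a comparison group for free RNA in the droplets. They held a Ccl2 UMI in 14.6%, 2.93% and 27.5% of cells, at median depths of 4078, 832 and 4656 UMIs. Their Ccl2 level was 170.5, 20.1 and 161 CPM, and single tumor cells held up to 26, 1 and 25 Ccl2 UMIs. How much of this was free RNA was not tested. Among stromal clusters of at least 20 cells, Stroma5 had the most Ccl2, 875 CPM untreated and 1910 progressed, and no Stroma5 cell came from the regressed tumor. Stroma4 held 103 CPM in its 599 untreated cells and 572 in its 826 progressed cells, whereas Stroma10 of the regressed tumor held 72.7. Of all Ccl2 UMIs, the stroma contributed 53.7%, 28.1% and 71.95%.

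Mast cells were the group richest in Ccl2 and Ccl7, although few of them were captured (16 untreated, 106 regressed and 85 progressed cells). Their Ccl7 level was 18133 CPM (17076 to 19240) untreated, 6275 (6008 to 6552) regressed and 15939 (15488 to 16399) progressed, and their Ccl2 level 6055, 2765 and 5035 CPM. Ccl7, a chemoattractant of monocytes and eosinophils, had a UMI in 100%, 93.4% and 97.6% of mast cells, and the median mast cell held 68, 9.5 and 55 Ccl7 UMIs. The cells named as mast cells carried the mast markers Cpa3, Kit, Mcpt4 and Tpsb2 at a summed 75586 to 78308 CPM in the 3 tumors. In the regressed tumor mast cells were 2.84% of the cells but held 69.6% of the tumor's Ccl7 UMIs and 49.1% of its Ccl2 UMIs. The corresponding Ccl7 share was 15.4% in the untreated tumor, from 0.391% of the cells, and 43.3% in the progressed tumor, from 1.75% of the cells. Against macrophages of the same tumor, mast cells held 13.2-fold, 29.6-fold and 8.20-fold more Ccl7.

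Leaving out mast cells turned the direction of 1 of the 3 whole-tumor differences of Ccl7. With every cell counted, Ccl7 was 321.5 CPM untreated, 239 regressed and 406 progressed. Without mast cells, an alternative chosen after seeing the data, it was 273, 74.7 and 233, and the log2 ratio of progressed to untreated went from 0.34 to -0.23. The ratio of regressed to untreated went from -0.43 to -1.87. For Ccl2 the same removal moved the log2 ratio of regressed to untreated from -1.34 to -2.22 and that of progressed to regressed from 2.53 to 3.38, keeping the direction of both.

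**Figure D2:**
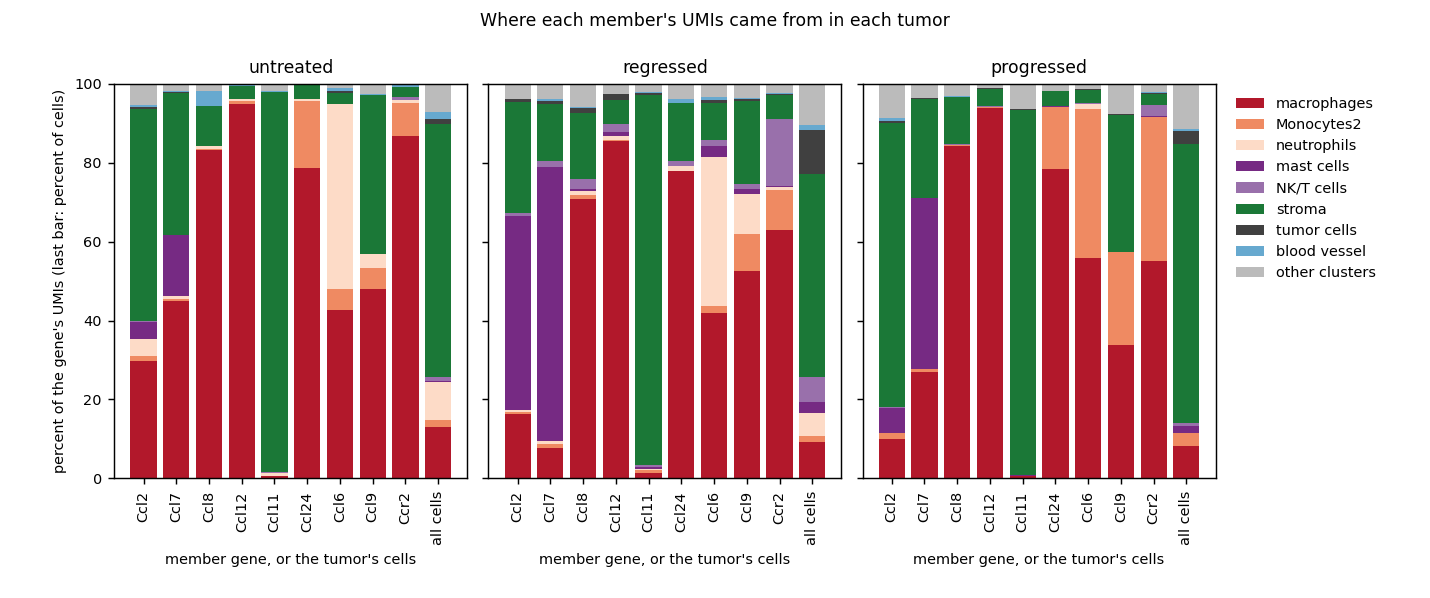
Percent of each gene's UMIs in a tumor, stacked by the group of cells that held them, with the make-up of all cells as the last bar. Mast cells (purple) held 69.6% of Ccl7 in the regressed tumor, stroma (green) 92.5 to 96.4% of Ccl11, and neutrophils 46.9% of Ccl6 in the untreated but 1.22% in the progressed tumor.

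Outside mast cells, the level of Ccl7 was higher in macrophages than in stroma, but its UMIs came from both. Macrophages held 45.1%, 7.82% and 26.9% of the tumor's Ccl7 UMIs and stroma 36.1%, 14.5% and 24.9%, so stroma exceeded macrophages in the regressed tumor. The level was 1378 CPM (1331 to 1427) in untreated, 212 (186 to 241) in regressed and 1944 (1875 to 2016) in progressed macrophages. Stroma held 183, 66.8 and 155 CPM in the same order. In the regressed tumor Ccl7 was 67.2 CPM in neutrophils, 62.8 in NK and T cells, 59.8 in Monocytes2, 56.0 in blood vessel cells and 36.9 in tumor cells. The part of RNA from other cells in the regressed stromal level was not tested. Among stromal clusters of at least 20 cells in a tumor, Stroma8 had the most, 1059 CPM in its 23 untreated and 952 in its 21 progressed cells, and 73.9% and 71.4% of these cells held a UMI. Monocytes1 was low in all tumors (209, 160 and 44.2 CPM), and the cluster Macrophages held 2464, 371 and 2318 CPM. Within that cluster the regressed tumor was again lowest, but the progressed tumor was slightly below the untreated one (log2 ratio -0.09, against 0.50 in the class).

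Ccl8 and Ccl12, neighbouring chemokine genes whose products belong to the monocyte chemoattractant family, came mostly from macrophages. The genes Ccl2, Ccl7, Ccl11, Ccl12 and Ccl8, lie on chromosome 11 of GRCm38 between 82035577 and 82116799, and Ccl9 and Ccl6 follow on the same chromosome from 83572917 to 83593087, whereas Ccl24 is on chromosome 5 and Ccr2 on chromosome 9. Ccl12 (chr11:82101845-82103399) and Ccl8 (chr11:82115185-82116799) are both on the plus strand, and their counts were identical in every cell to those of 1 further feature each that carries no known symbol, so reads of these gene models cannot be told apart and the levels of both genes are uncertain to that extent. The 250 bases upstream of their starts are shown because both genes peaked in the same cluster. They were read from RefSeq on GRCm38.p6, where 5 of the 9 members had an entry, and capitals mark matches to any of 6 motifs searched on both strands.
Ccl8 upstream, chr11:82114935-82115184: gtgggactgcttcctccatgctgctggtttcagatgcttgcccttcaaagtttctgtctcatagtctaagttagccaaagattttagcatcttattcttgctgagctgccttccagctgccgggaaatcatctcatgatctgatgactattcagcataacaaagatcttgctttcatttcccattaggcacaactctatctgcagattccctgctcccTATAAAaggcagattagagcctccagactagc
Ccl12 upstream, chr11:82101595-82101844: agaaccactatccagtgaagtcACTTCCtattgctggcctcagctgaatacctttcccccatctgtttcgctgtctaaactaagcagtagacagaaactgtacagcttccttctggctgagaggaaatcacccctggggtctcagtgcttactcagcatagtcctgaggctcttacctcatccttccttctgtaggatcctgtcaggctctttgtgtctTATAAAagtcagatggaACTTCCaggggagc
Both sequences hold the TATA box letters TATAAA, at -32 to -27 in Ccl8 and -31 to -26 in Ccl12 counted from the gene start, a motif found in 12.4% of the 32851 promoter windows of the table. Ccl12 also holds GGAAGT, the core bound by Ets factors such as PU.1, at 2 places on the minus strand, at -228 to -223 and -14 to -9, and that motif is in 19.7% of windows. The motifs TTGCNNAA of C/EBP, TGANTCA of AP-1, TTCNNNGAA of STAT factors and GGGNNNNNCC of NF-kappaB, which 9.56%, 6.75%, 7.02% and 45.8% of windows hold, had no match in either sequence. Over 266 aligned columns the upstream sequences were 54.5% identical, and the other pairs among the 5 members 41.9 to 49.5%. These matches describe letters, not binding.

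In macrophages Ccl8 was 1545 CPM (1495 to 1596) untreated, 997 (939 to 1058) regressed and 3221 (3132 to 3313) progressed. This difference between tumors lay in the mix of clusters more than in the level within one, since the cluster Macrophages held 2945, 3916 and 3848 CPM and made up 312 of 537, 143 of 340 and 339 of 392 cells of the class. The transcript was concentrated in few cells: in Macrophages 39.1%, 47.6% and 56.6% of cells held a Ccl8 UMI, and the 5% of cells with the most held 60.2%, 51.9% and 42.6% of its UMIs, with up to 304, 110 and 278 in a single cell. Macrophages supplied 83.3%, 70.8% and 84.2% of all Ccl8 UMIs, and stroma 10.3%, 16.7% and 11.9%. In the regressed tumor Ccl8 was 40 CPM in stroma, 49.1 in NK and T cells, 50.4 in neutrophils, 36.8 in Monocytes2 and 33.6 in tumor cells.

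Ccl12 differed more between tumors than Ccl8 did, at 520 CPM (491 to 550) in untreated, 231 (203 to 261) in regressed and 2313 (2237 to 2391) in progressed macrophages. The difference held within the cluster Macrophages, with 988, 902 and 2766 CPM, where the untreated and regressed intervals overlapped and the progressed value stood above both. In stroma it stayed at 2.91, 2.80 and 9.27 CPM, and in tumor cells at 0, 6.71 and 9.53. For the 48 untreated tumor cells the interval of the level reaches 13.98 CPM. The part of RNA from other cells in stromal Ccl12 was not tested. Monocytes1 held 16.02, 10.9 and 12.1 CPM.

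Ccl11, eotaxin-1, was the only member higher in stroma than in macrophages, and it was so in all 3 tumors. Stromal Ccl11 was 922 CPM (906 to 938) untreated, 909 (885 to 932) regressed and 2081 (2059 to 2102) progressed. The untreated and regressed tumors overlapped within counting error and the progressed tumor was 2.26-fold above the untreated one. A UMI was found in 76.5%, 66.9% and 86.6% of stromal cells, and in 44.6%, 44.2% and 64.1% at 1000 UMIs per cell. Stroma7 and Stroma5 were the richest clusters in the progressed tumor, with 3810 and 3425 CPM, and Stroma5 held 2548 CPM in the untreated tumor, where 100% of its 165 cells had a UMI. Stroma4 differed between the same tumors, at 660 CPM untreated and 1414 progressed, while Stroma6 (758 and 888), Stroma2 (804 and 735) and Stroma3 (348 and 413) lay close together. With the 6 stromal clusters shared by both tumors weighted equally, the log2 ratio of progressed to untreated dropped from 1.17 to 0.34, below the 2-fold threshold, so the whole-stroma difference depends on how the clusters are weighted.

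Ccl24, eotaxin-2, came from the myeloid clusters. Macrophages held 149 CPM (134 to 166) untreated, 161 (138 to 187) regressed and 637 (598 to 679) progressed, and the cluster Macrophages alone 254, 145 and 759 CPM. The share of that cluster with a UMI was 19.6%, 12.6% and 46.9%. In the regressed tumor the class level was above that of Macrophages, so Monocytes1 held a higher Ccl24 level than Macrophages there. Monocytes2 was the next source in 2 of the tumors, with 178 CPM untreated and 193 progressed. In the regressed tumor 0 of 57 Monocytes2 cells held a Ccl24 UMI, for which the interval of the level reaches 8.48 CPM. Stroma held 1.14, 5.14 and 2.67 CPM, and Ccr3, the receptor of both eotaxins, had at most 4 UMIs in the macrophages of any tumor.

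Ccl6, an abundant transcript of mouse myeloid cells, was the member highest in neutrophils. Neutrophils held 1916 CPM (1847 to 1987) untreated and 3176 (2977 to 3385) regressed, and the only 4 progressed neutrophils 7368 (5502 to 9662). Of all Ccl6 UMIs, macrophages held 42.7%, 41.8% and 55.9%, the largest share in the regressed and progressed tumors. Neutrophils held 46.9%, 37.6% and 1.22%, and Monocytes2 held 5.18%, 1.91% and 37.6%. In macrophages Ccl6 was 1137 (1094 to 1181), 962 (905 to 1022) and 1579 (1516 to 1644) CPM, differences of less than 2-fold. The 2 clusters of the class moved apart in the regressed tumor, where Monocytes1 held 1153 CPM and Macrophages 379, against 854 and 1400 untreated.

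Ccl9, also called MIP-1 gamma, was a monocyte transcript with a stromal share. Monocytes1 was its highest cluster of at least 20 cells in each tumor, at 1090 CPM (1030 to 1153) untreated, 849 (787 to 914) regressed and 1029 (907 to 1163) progressed. Macrophages as a class held 827, 689 and 723 CPM, the narrowest range of any member there. Stroma held 115 CPM (109 to 121), 47.3 (42.1 to 52.9) and 63.7 (60.0 to 67.5), and 40.2% of the untreated tumor's Ccl9 UMIs. Most of the stromal signal in the untreated tumor was in Stroma5 (418 CPM) and Stroma1 (227 CPM), and Stroma5 of the progressed tumor held 164 CPM. Neutrophils held 92.7 CPM untreated and 497 regressed.

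Ccr2, the receptor through which Ccl2, Ccl7 and Ccl12 act, showed another order of tumors than its ligands. Macrophages held 909 CPM (871 to 949) untreated, 1342 (1274 to 1412) regressed and 410 (378 to 443) progressed, so the regressed tumor was highest and the progressed lowest. Both clusters of the class and their mix differed. Monocytes1 held 974, 1560 and 864 CPM and was 225 of 537, 197 of 340 and 53 of 392 cells, and Macrophages held 850, 676 and 320 CPM. In the cluster Macrophages alone the regressed tumor was therefore below the untreated one, and the progressed tumor was lowest. T and NK cells were a further source in the regressed tumor, where the cluster NK_T held 723 CPM (653 to 798) in 180 cells, against 174 (107 to 265) in 25 untreated cells. Monocytes2 held 471, 545 and 407 CPM, with overlapping intervals between untreated and regressed. Stroma held 4.19, 21.6 and 1.82 CPM.

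**Figure D3:**
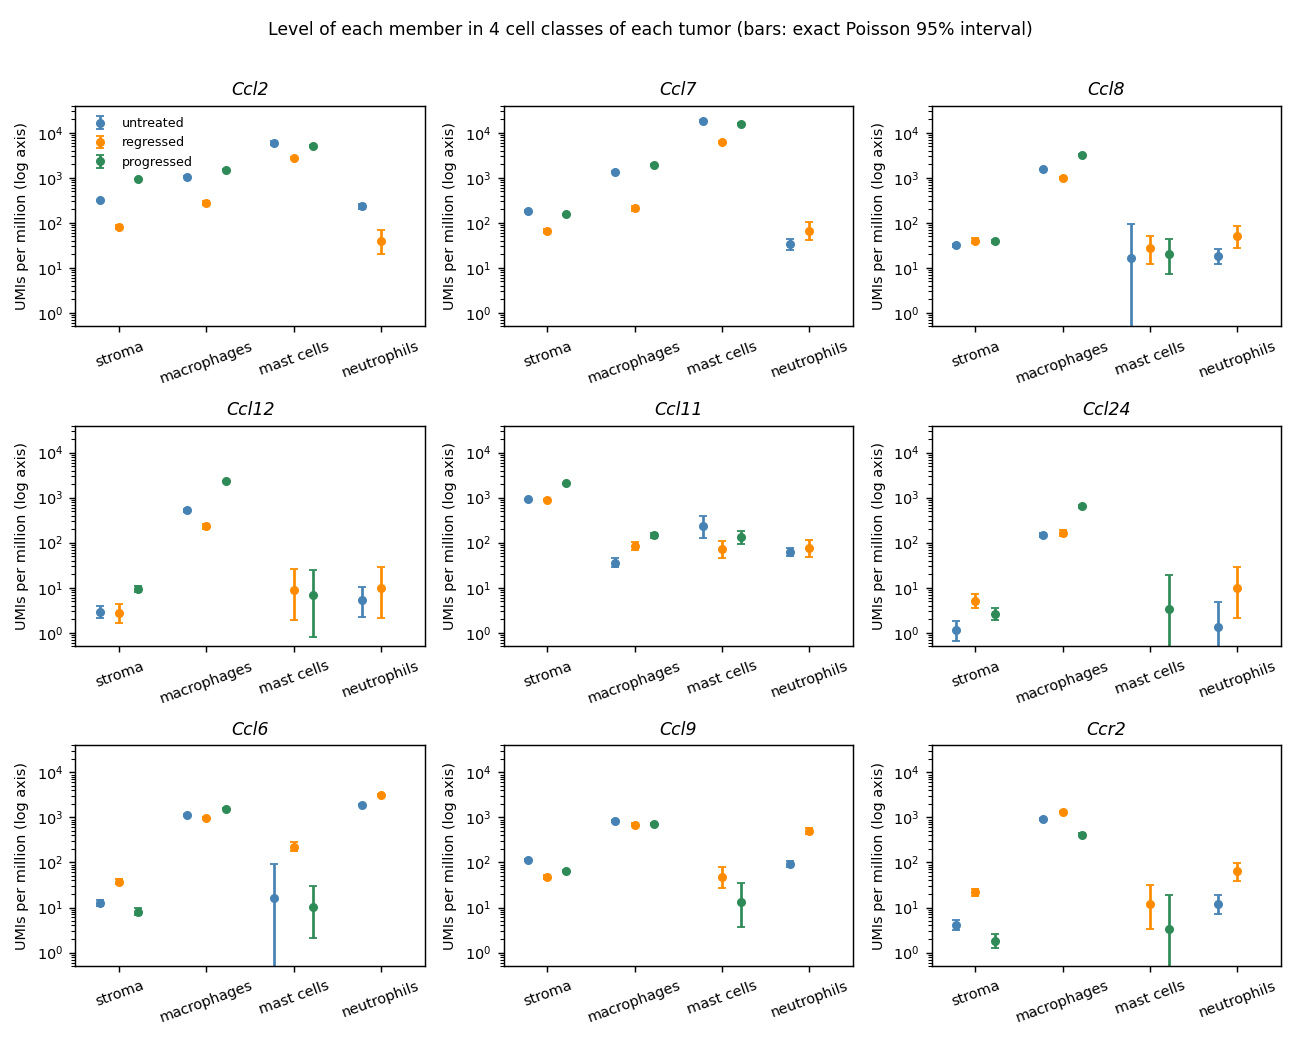
CPM (log axis) of each gene in stroma, macrophages, mast cells and neutrophils, 1 point per tumor, with exact Poisson 95% intervals. Progressed neutrophils (4 cells) and groups at 0 UMIs are not drawn, and Ccl11 is the one gene whose stromal points (909 to 2081 CPM) lie above its macrophage points (36.0 to 147 CPM).

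Set against each other within a tumor, stroma and macrophages divided the members in nearly the same way in each tumor. In the untreated tumor 1 of the 9 genes, Ccl11, was at least 2-fold higher in stroma and the other 8 at least 2-fold higher in macrophages, where 30.5% of 14190 features tested were higher in stroma and 14.0% higher in macrophages. In the regressed tumor the counts were again 1 and 8, against 27.3% and 13.1% of features. In the progressed tumor they were 1 and 7, against 28.8% and 13.2%, and Ccl2 was the member within 2-fold, 1.62-fold higher in macrophages. Stroma held more cells than macrophages in each tumor (2628 against 537, 1918 against 340 and 3422 against 392) and supplied most Ccl2 UMIs of the untreated and progressed tumors at a lower level than macrophages.

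The log2 ratio of stroma to macrophages showed how far the sources lay apart. For Ccl11 it was 4.68, 3.43 and 3.82. For Ccl2 it was -1.74, -1.76 and -0.69, and for Ccl7 -2.91, -1.67 and -3.65. For Ccl9 it was -2.85, -3.86 and -3.50. Ccl8 lay further apart (-5.61, -4.64 and -6.36), as did Ccl6 (-6.50, -4.69 and -7.60). Ccl12 (-7.48, -6.36 and -7.96), Ccl24 (-7.04, -4.97 and -7.90) and Ccr2 (-7.76, -5.96 and -7.81) were separated the most in each tumor. For Ccl7, Ccl8, Ccl6, Ccl12, Ccl24, Ccr2 and Ccl11 the separation was smallest in the regressed tumor, and for Ccl2 and Ccl9 it was not.

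That narrowing coincided with markers of other cell types in the regressed stroma. The 4 mast cell markers summed to 10.5 CPM in untreated, 388.5 in regressed and 40.6 in progressed stroma, all 4 with UMIs in each, and the 2 haemoglobin genes to 31.8, 1368 and 0.512. In the regressed tumor the mast markers also stood at 438 CPM in the cluster Macrophages and 398 in Monocytes1, against 11.6 and 8.90 in the untreated tumor. In the regressed tumor Ccl6 was 37.4 CPM in stroma, and 31.9 in tumor cells, 47.8 in NK and T cells and 70.0 in blood vessel cells. Ccr2 was 21.6 CPM in regressed stroma, 23.3 in blood vessel and 11.7 in tumor cells. The part of RNA from other cells in the stromal levels of Ccl8, Ccl6, Ccl12, Ccl24 and Ccr2 was not tested. Its part in the regressed levels of Ccl2 and Ccl7 was not tested either.

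**Figure D4:**
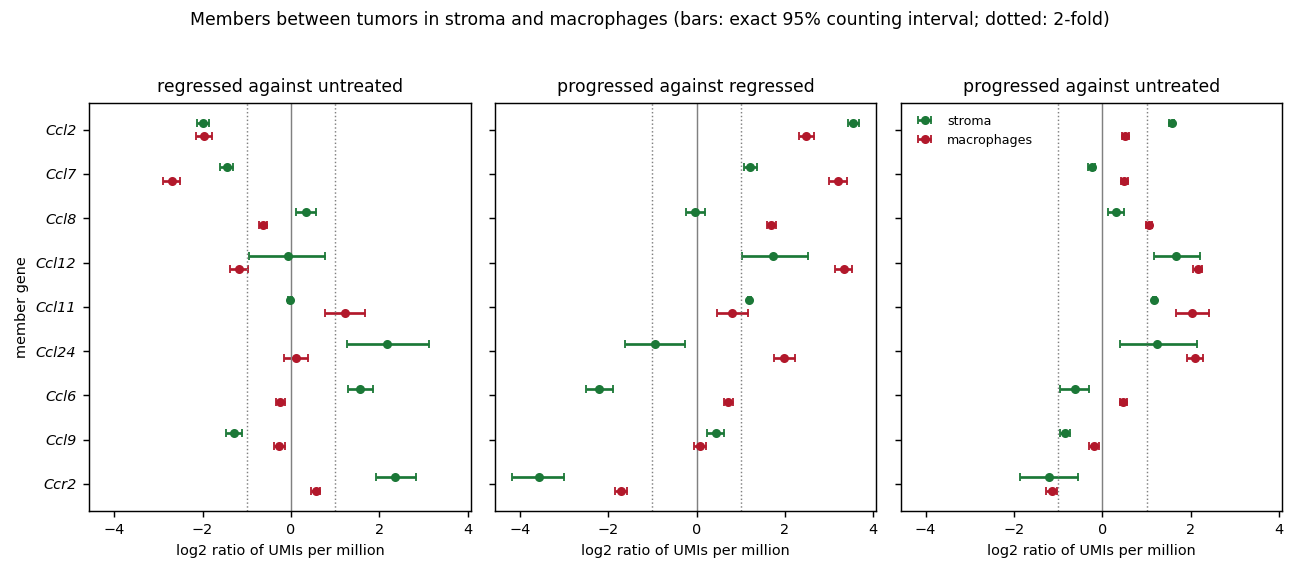
Log2 ratio of CPM of the 9 genes for the 3 pairs of tumors named above the panels, in stroma (green) and macrophages (red), with exact 95% counting intervals and dotted lines at 2-fold. Ccl2 lies at -1.98 and -1.96 in the left panel and at 3.55 and 2.48 in the middle panel, and Ccr2 in macrophages at 0.56, -1.71 and -1.15.

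The regressed tumor was first compared with the untreated one. In stroma 6 of the 9 genes were at least 2-fold apart, against 20.8% of 14791 features. The 3 that were lower were Ccl2 by a log2 ratio of -1.98 (-2.12 to -1.85), Ccl7 by -1.46 (-1.61 to -1.31) and Ccl9 by -1.28 (-1.46 to -1.10). These tumors shared only 1 stromal cluster of at least 20 cells, in which 2 of the 9 genes were apart and the Ccl7 ratio was 0.85, so stromal level and cluster make-up cannot be told apart. The 3 that were higher, Ccl24 (2.18), Ccl6 (1.57) and Ccr2 (2.37), were the immune transcripts at or below 37.4 CPM described above. In macrophages 4 of 9 were apart, against 13.7% of 10118 features. Ccl7 was lower by -2.70 (-2.90 to -2.51), Ccl2 by -1.96 (-2.14 to -1.79) and Ccl12 by -1.17 (-1.37 to -0.98). In the cluster Macrophages alone the Ccl12 ratio was -0.13, within 2-fold, while Ccl7 (-2.73) and Ccl2 (-2.25) stayed apart. Ccl11 was higher by 1.23, at 84.2 against 36.0 CPM, and this ratio was -0.08 after thinning each cell to 1000 UMIs. Cluster by cluster, Ccl2 was at least 2-fold lower in 8 of the 11 clusters compared and at least 2-fold higher in 0.

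The progressed tumor was then compared with the regressed one. In stroma 6 of 9 genes were apart, against 20.8% of 14806 features. Ccl2 was higher by a log2 ratio of 3.55 (3.42 to 3.68), the largest of the 8 member ligands in stroma, followed by Ccl12 (1.73), Ccl7 (1.21) and Ccl11 (1.20). Ccl6 was lower by -2.20 and Ccr2 by -3.57. Stromal Ccl12, Ccl6 and Ccr2 were low in both tumors, and the part of RNA from other cells in them was not tested. In macrophages 6 of 9 were apart, against 17.8% of 9375 features, and 5 of them were higher. These were Ccl12 by 3.33 (3.14 to 3.52), Ccl7 by 3.20 (3.002 to 3.395), Ccl2 by 2.48 (2.31 to 2.66), Ccl24 by 1.99 (1.75 to 2.23) and Ccl8 by 1.69 (1.597 to 1.788). Ccr2 was the one lower, by -1.71 (-1.85 to -1.58). The Ccl8 ratio was -0.03 in the cluster Macrophages alone. Ccl2 was at least 2-fold higher in 10 of 11 clusters compared. Only 1 stromal cluster held at least 20 cells in both of these tumors, so a stromal difference and a difference in cluster make-up cannot be told apart here, and the Ccl7 ratio in that cluster was -0.54.

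The progressed tumor differed less from the untreated one. In stroma 5 of 9 genes were apart, against 9.27% of 15068 features. Ccl12 (1.67), Ccl2 (1.57), Ccl24 (1.23) and Ccl11 (1.17) were higher and Ccr2 (-1.20) was lower. Stromal Ccl12, Ccl24 and Ccr2 were far below stromal Ccl2 and Ccl11 in both tumors, at the levels given above. The part of RNA from other cells in these low levels was not tested. In macrophages 5 of 9 were apart, against 10.2% of 10138 features: Ccl12 was higher by 2.15 (2.06 to 2.25), Ccl24 by 2.10 (1.92 to 2.28), Ccl11 by 2.03 (1.66 to 2.41) and Ccl8 by 1.06 (0.998 to 1.122), and Ccr2 was lower by -1.15 (-1.28 to -1.02). In the cluster Macrophages alone Ccl8 was within 2-fold (0.39). Macrophage Ccl11 of the progressed tumor, 147 CPM, was close to its level in tumor cells (133 CPM) and mast cells (131 CPM) of that tumor, and the part of RNA from other cells in it was not tested. Macrophage Ccl2 (0.52), Ccl7 (0.50), Ccl6 (0.47) and Ccl9 (-0.19) were within 2-fold. Ccl11 was at least 2-fold higher in 9 of the 14 clusters compared and lower in 0, non-stromal clusters included. Of the stromal clusters named above for Ccl11, Stroma4 was at least 2-fold higher, while Stroma2, Stroma3, Stroma5 and Stroma6 were within 2-fold. The part of RNA from other cells in the non-stromal clusters was not tested. The 3 comparisons share tumors and are not independent of each other.

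Over all features, the regressed libraries stood off from the others, and another scaling showed this. With TMM factors, the share of called features that were higher in regressed than in untreated cells went from 65.8% to 46.9% in stroma and from 70.8% to 47.2% in macrophages. For progressed against regressed it went from 23.9% to 47.9% and from 28.1% to 49.7%. The shifts in log2 ratio were -0.25 and -0.22 in the former comparison and 0.31 and 0.25 in the latter, and no count of members changed by more than 1.5 times.

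Early-response genes were lower in the regressed tumor, as Ccl2 was, but did not differ with it in every comparison. Of 14 genes that respond to tissue dissociation, among them Fos, Jun and Atf3, 7 were at least 2-fold lower in regressed than in untreated stroma and 7 in macrophages, with median log2 ratios of -0.99 in both, against 0.14 and 0.13 over all features. In the progressed against the regressed tumor 6 were higher in each, with medians of 0.89 and 0.87 against -0.20 in both. Between progressed and untreated tumors 0 of 14 were apart in stroma, where Ccl2 was higher by 1.57, and 1 in macrophages. Summed over the 14 genes, mast cells held 34579, 32738 and 62585 CPM, macrophages 16164, 9132 and 18200, and stroma 19415, 9139 and 18369. Neutrophils held 19960 CPM untreated and 28149 regressed. The part of the dissociation response in the Ccl2 and Ccl7 levels, those of mast cells included, was not tested.

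Within the cluster Macrophages, cells with a Ccl8 UMI less often held a Ccr2 UMI than cells without one. At 1000 UMIs per cell, Ccr2 was detected in 11.2% of untreated cells with Ccl8 and in 59.1% of those without. The corresponding values were 7.14% and 46.9% in the regressed and 7.41% and 27.1% in the progressed tumor. Ccl12 ran the other way, found in 60.7%, 42.9% and 59.3% of cells with Ccl8 and in 31.6%, 26.6% and 47.1% of those without, with overlapping intervals in the regressed and progressed tumors. Ccl7 was found in 69.3% and 69.4% of untreated and progressed cells with Ccl2, against 28.1% and 41.7% of those without, and in the regressed tumor in 3 of 18 cells (16.7%) against 25.7%. Cells of 1 tumor share their source, so these shares carry no test.

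**Figure D5:**
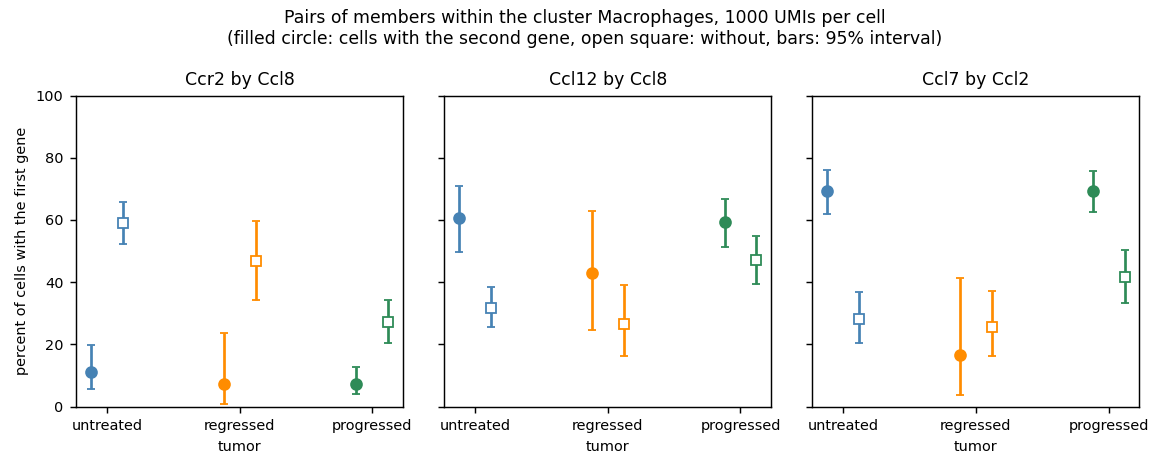
Percent of cells of the cluster Macrophages, thinned to 1000 UMIs, with a UMI of Ccr2 or Ccl12 by Ccl8 and of Ccl7 by Ccl2, for cells with (filled circles) and without (open squares) the latter gene, with exact 95% intervals. Ccr2 lies lower in cells with Ccl8 in each tumor (11.2% against 59.1%, 7.14% against 46.9% and 7.41% against 27.1%), and the Ccl12 and Ccl7 pairs overlap in the regressed tumor.

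Patterns across the 53 groups placed the members beside other genes, as a description only, since groups share libraries and depth. Ccl8 was most like Cd209f (r = 0.82), Cd209g (0.81) and Cd163 (0.81), and Ccl12 most like Cd209g (0.93), Prune2 (0.90) and Cd163 (0.90). Cd163 is the haemoglobin scavenger receptor of macrophages. These likenesses rest on a few groups with high levels, since the rank correlations were 0.22 to 0.28 for the Ccl8 genes and 0.28 to 0.61 for the Ccl12 genes. Ccl24 was most like Kcnk13 (0.89), F13a1 (0.88) and Cd83 (0.87). Ccl11 was most like Lum (0.91), Islr (0.91) and Dcn (0.90), of which Lum and Dcn encode matrix proteoglycans of fibroblasts. Ccl6 was most like Ccr1 (0.92), Clec7a (0.92) and Lrrc25 (0.91), and Ccl9 most like Gm6377 (0.81) and Itgam (0.79). Ccr2 was most like Ctss (0.95), Susd3 (0.94) and Ms4a6b (0.93). Ccl2 was most like Fos (0.67), Ccl7 (0.65) and Nr4a1 (0.64), and Ccl7 most like Mexis (0.71), Slc7a8 (0.70) and P2rx4 (0.69), the weakest likenesses of the 9. Among pairs of members, Ccl8 with Ccl12 had the highest correlation (0.80) and Ccl11 with Ccl6 the lowest (-0.46).

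Genes in the remainder of the CC family were more often too sparse to be compared, although Ccl3 and Ccl4 were abundant in macrophages and neutrophils. Of 14 other ligands, 7 had enough UMIs to be compared between stroma and macrophages in the untreated tumor. Of these, 3 were at least 2-fold higher in stroma and 4 in macrophages, against 30.5% and 14.0% of 14190 features. Between tumors, macrophage Ccl3, a Ccr1 ligand, was 716 CPM untreated, 180 regressed and 723 progressed, and Ccl4, also called MIP-1 beta, 556, 146 and 888. Both were lowest in the regressed tumor, as Ccl2 was. Macrophage Ccl5 was 3.86, 17.4 and 294 CPM. Of 14 receptors, 6 were compared in the untreated tumor. Of these, 5 were at least 2-fold higher in macrophages and 0 in stroma, against the same shares of all features. Macrophage Ccr1, the receptor for Ccl6 and Ccl9, was 354, 308 and 332 CPM, whereas Cx3cr1, the fractalkine receptor, was 333, 381 and 562.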

How the data were processed

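Single-cell suspensions of 3 tumors, 1 per group, were profiled with a droplet 3′ kit. Per the labels, the authors' deposited tables hold UMI counts per gene and cell, not normalized, with a table of other values that gives each cell's cluster and totals. The submitters' processing notes name GSNAP, Seurat 2.2.0 and GRCm38 (mm10), and the annotation is not given in the sources used here. The authors filtered and clustered the cells, and cells were used as deposited. Doublets were not called here, and the sources used here describe no doublet removal. The cell table gives serial identifiers instead of barcodes, so barcodes shared between libraries could not be counted. Sums of the tables exceeded the deposited totals per cell by 5.02%, while genes per cell were equal in all 12670 cells.

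UMIs were summed per cluster, or class of clusters, and tumor. Levels are CPM with exact Poisson intervals, shares have Clopper-Pearson intervals, and log2 ratios have exact conditional binomial intervals, at 95%. A gene at 0 UMIs in one group was set to 3 UMIs over that group, and its ratio is a bound. Ratios were tested on simulated data. Free RNA was not subtracted. Named genes were all 9 members, the pathway genes at their largest levels, and for each member the 3 genes of most similar pattern among 12614. Some items, among them part of the genotype and 1 gene of similar pattern, are not reported here. The members and lists were chosen with earlier results of these data known. Alternatives covered TMM scaling, equal weight per cell, thinning to 1000 UMIs, removal of the top 5% of cells, other class definitions, and other thresholds. Tools were Python 3.11.15, numpy 2.4.6, scipy 1.17.1, pandas 2.3.3, matplotlib 3.10.9, Biopython 1.88, R 4.3.3 and edgeR 4.0.16 (TMM factors only).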

Additional observations from a re-analysis of the deposited data

Results flagged for a closer look

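In 6 cases a gene went in opposite directions in stroma and macrophages between the same tumors, with each group being 1 tumor, so that the difference between compartments was not tested. Ccl7 in progressed against untreated cells had a log2 ratio of -0.24 in stroma and 0.50 in macrophages, which was -0.09 in the cluster Macrophages alone, so that the directions there were the same. Ccl8 in regressed against untreated cells had 0.34 in stroma and -0.63 in macrophages, which was 0.41 in the cluster Macrophages alone, again the stromal direction. Ccl24 in progressed against regressed cells had -0.94 in stroma, at 2.67 against 5.14 CPM, and 1.99 in macrophages.

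Ccl6 did so in all 3 comparisons. Its log2 ratio was 1.57 in stroma and -0.24 in macrophages for regressed against untreated, -2.20 and 0.71 for progressed against regressed, and -0.63 and 0.47 for progressed against untreated. Stromal Ccl6 was 12.6, 37.4 and 8.13 CPM (untreated, regressed, progressed), and its level in tumor cells 87.2, 31.9 and 13.1 CPM.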

How the results depend on the processing

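With 1 tumor per group no replicate could be left out. No paired analysis was possible because each group holds 1 tumor and the results come from no test. The counts of members at least 2-fold higher or lower in stroma than in macrophages stayed within 1.5 times under every alternative run. Regressed against untreated, the 6 stromal members apart became 2 in the single shared stromal cluster and 3 at a 3-fold threshold, and the 4 in macrophages became 2 after thinning and 2 at 3-fold. Progressed against regressed, the 6 in stroma became 2 in the shared cluster. Progressed against untreated, the 5 in stroma became 3 after thinning and 1 at 3-fold, and the 5 in macrophages became 3 at 3-fold. Among ratios at least 2-fold apart, directions reversed for stromal Ccl7 in the shared cluster (0.85 for regressed against untreated and -0.54 for progressed against regressed), for macrophage Ccl11 after thinning (-0.078, regressed against untreated) and for macrophage Ccl8 in the cluster Macrophages alone (-0.025, progressed against regressed). For the shared cluster the change follows from leaving out the other stromal clusters, and for the thinned values the cause was not tested. Among ratios within 2-fold, the cluster Macrophages alone turned regressed against untreated for Ccl8 (0.41), Ccl24 (-0.81) and Ccr2 (-0.33), and progressed against untreated for Ccl2 (-0.03), Ccl7 (-0.09) and Ccl9 (0.19). In the shared-cluster alternative 8 of 27 ratios gave no value.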

Other observations

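Neutrophils held high levels of other CC ligands. Ccl3 was 3530 CPM in untreated and 4235 in regressed neutrophils, and Ccl4 3570 and 4941, each above the level in macrophages of the same tumor. Ccr1 was 1475 and 1455 CPM in the same neutrophils.

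Ccl8 reached 209 CPM in the 74 untreated blood vessel cells, where 1 cell held 134 of the 163 UMIs, and was 28.0 and 19.1 CPM in the blood vessel cells of the regressed and progressed tumors.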
